A study of Mus musculus with 18 samples.

Results

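The fetal spheroid marker genes are 8 mouse genes whose transcripts mark spherical organoids grown from fetal gut: Spp1, Clu, Msln, Ly6a, Gja1, Basp1, Anxa1 and Anxa8. They were found as the probes whose gene name in the array files is one of these symbols, which gave 8 probes, 1 per gene, among 41109 usable probes for 19701 named genes. Levels were read in 18 one-colour microarray hybridisations that fall into 6 groups of 3, all from the strain C57BL/6. Induced intestinal stem cells (iISC) gave budding organoids, which carry crypt-like buds. Induced fetal intestinal progenitor cells (iFIPC) gave a mixture of spherical and budding organoids. Adult intestinal crypts gave budding organoids (crypt organoids). Fetal intestine (FI) gave a mixture of spherical and budding organoids. Induced hepatocyte-like cells (iHep) were made from mouse embryonic fibroblasts, and mouse embryonic fibroblasts (MEFs) form the last group. The labels give no age, no passage, no share of spheres among the mixed cultures and no list of the factors used for conversion, and the 3 iHep titles carry different unexplained codes, so that these may be different conversions. Nothing in them says that replicates are separate animals or cultures, and p-values then measure only the spread between these samples, which may be technical.

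As background, epithelium taken from the fetal mouse intestine can grow as smooth spheres with few differentiated cells, whereas adult crypts grow as budding organoids that hold stem, Paneth, goblet and absorptive cells. Fetal spheres are known for a set of transcripts that adult crypts keep low, and part of the same set returns when adult epithelium regenerates after injury. The set has no single function. Spp1 (osteopontin) and Clu (clusterin) encode secreted glycoproteins. Msln (mesothelin) and Ly6a (Sca-1) encode proteins held on the cell surface by a lipid anchor. Gja1 encodes connexin 43, a gap junction channel protein, and Basp1 a protein of the inner face of the plasma membrane known from neuronal growth cones. Anxa1 and Anxa8 encode annexins, which bind membranes in the presence of calcium. Several of these genes, such as Spp1, Gja1 and Anxa1, are also expressed by fibroblasts.

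The array probes are single strands of 60 bases. The beginnings of 4 of them, the first 30 bases, 5′ to 3′, are shown because 3 (Spp1, Gja1, Basp1) decide between background and signal in the organoids and 1 (Ly6a) has a close companion described below. Nothing is set in capitals, since no part of a probe matters more than another.
Spp1: cttagtctgttgtttcatgcaaacaccgtt
Gja1: ctacacattaactcagaacttgtattctga
Basp1: tacaatgtgaacgacgagaaggccaaggac
Ly6a: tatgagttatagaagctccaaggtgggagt
In the mm9 coordinates of the organoid array files, the whole Spp1 probe lies at chr5:104869788-104869847 on the plus strand and the Gja1 probe at chr10:56109814-56109873 on the plus strand. The Basp1 probe lies at chr15:25294572-25294631 and the Ly6a probe at chr15:74825553-74825612, both on the minus strand. The other 4 probes lie at chr14:66600151-66600210 (Clu, plus strand), chr14:34913661-34913720 (Anxa8, plus strand), chr17:25885569-25885628 (Msln, minus strand) and chr19:20448248-20449761 (Anxa1, minus strand). The 60 bases of the Anxa1 probe span 1514 bases of the genome, so that its target is interrupted there. Which exon or untranslated region each probe lies in was not analysed here. No probe of a member shared a run of more than 16 bases with any of the other 41173 gene probes of the array.

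Levels are log2 processed signals counted from the upper quartile (75th percentile) of gene probes on the same array, so that 0 is a bright gene. The lowest level marked well above background lay between -7.10 (FI 3) and -5.73 (MEF 1), depending on the sample. Lower levels, down to about -9, are background readings. This percentile stood at 714 to 1484 intensity units, and the scanner software marked 56.1 to 68.7% of the probes of an array as well above background. MEF arrays 2 and 3 were nearly identical (over 19923 probes the log2 values of the pair differed with an SD of 0.119, where other pairs within a group had 0.238 to 0.683). They were averaged and counted as 1 sample, so there are 17 samples, 2 of them MEFs. MEF and iHep arrays form a set of their own, with another scanner and software version than the organoid set. The 7 added control RNAs (spike-ins) gave 0.52 to 1.20 log2 more signal in that set, with a median of 0.90. Differences of about that size between the 2 sets cannot be told apart from an array effect. All 12 epithelial markers were well above background in every organoid sample, with summed levels of 9.80 to 10.40 over the 4 organoid groups, and 5 of 12 were in MEFs, with summed levels of 2.13 to 2.61. Because whole cultures were measured, fewer cells of a type and less RNA per cell cannot be told apart.

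Across the 8 genes, crypt organoids had the lowest mean of the 6 groups each time and iFIPC organoids the highest of the 4 organoid groups each time. The native fetal cultures did not match the induced ones: FI organoids had Msln, Anxa1, Clu, Ly6a and Anxa8 well above background, but Basp1 in none of 3 samples, Gja1 in 1 and Spp1 in 2. MEFs or iHep cells held the highest level of every gene but Msln, which was highest on average in iFIPC organoids.

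**Figure D1:**
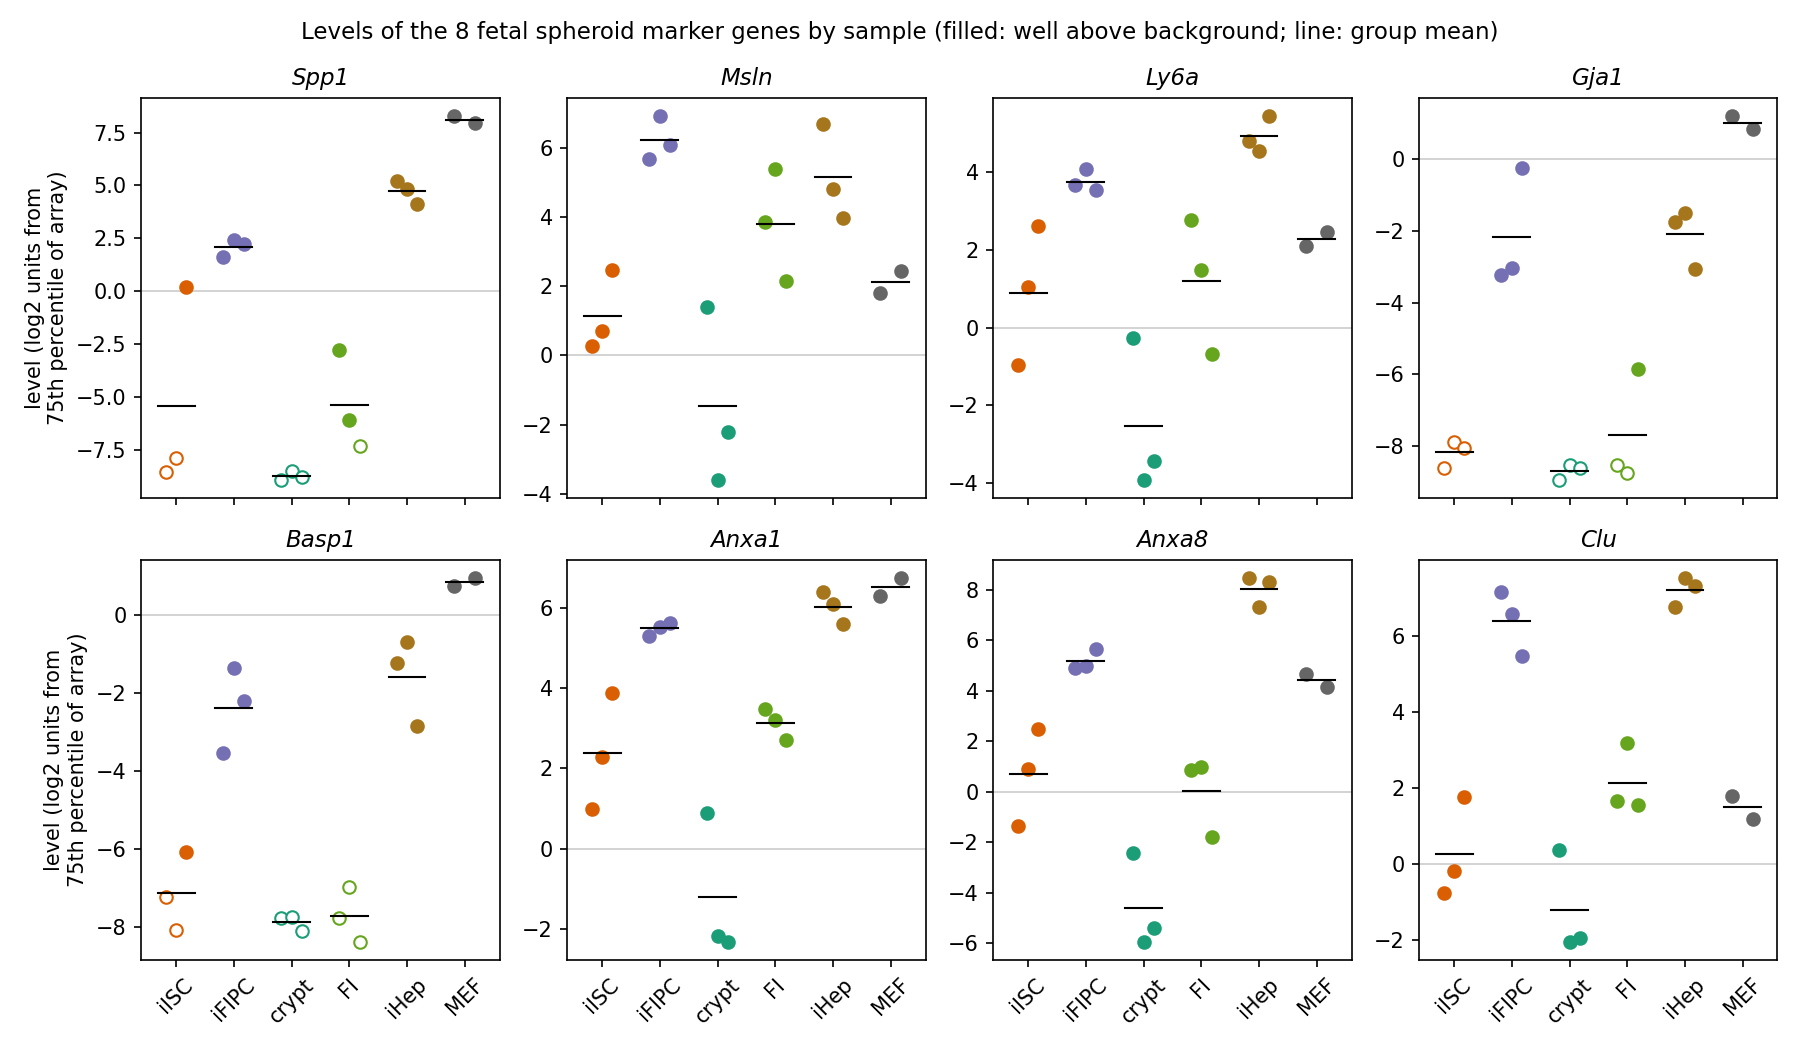
Level of each member gene (y axis, log2 units from the 75th percentile of the array) in iISC, iFIPC, crypt and FI organoids, iHep cells and MEFs (x axis), 1 point per sample, filled where the probe was well above background, with a line at the group mean. Each iFIPC sample lies above each crypt sample in all 8 panels, and Spp1 in iISC 3 lies at 0.19 while iISC 1 and iISC 2 lie at background.

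Spp1, the secreted integrin and CD44 ligand osteopontin, had levels of -8.54, -7.90 and 0.19 in iISC organoids 1, 2 and 3, of 1.60, 2.40 and 2.24 in iFIPC organoids, of -8.93, -8.53 and -8.79 in crypt organoids and of -2.79, -6.10 and -7.35 in FI organoids. It had levels of 5.22, 4.84 and 4.14 in iHep cells and of 8.28 and 7.95 in MEFs. The probe was well above background in 1 of 3 iISC, 3 of 3 iFIPC, 0 of 3 crypt and 2 of 3 FI samples, so a single iISC sample carried Spp1 while the others were at background. From high to low, the means ran MEF, iHep, iFIPC, FI, iISC and crypt, and the upper 4 groups did not overlap with each other. FI overlapped with iISC organoids and iISC with crypt organoids. Spp1 was printed in 10 spots, and where all its spots were well above background their SD, which is technical spread within an array, was 0.04 to 0.15 log2 (11 arrays).

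Clu, the secreted chaperone clusterin, had levels of -0.75, -0.18 and 1.75 in iISC organoids, of 7.15, 6.58 and 5.48 in iFIPC organoids, of 0.39, -2.04 and -1.95 in crypt organoids and of 1.67, 3.19 and 1.56 in FI organoids. In iHep cells it lay at 6.76, 7.52 and 7.32, and in MEFs at 1.78 and 1.20. Clu was thus high in both iFIPC organoids and iHep cells, whose ranges overlapped, and low to intermediate elsewhere. The next group down, FI, did not overlap with iFIPC organoids, while FI, MEF, iISC and crypt each overlapped with the next.

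Msln, a surface protein that binds the mucin Muc16, had levels of 0.27, 0.70 and 2.46 in iISC organoids, of 5.69, 6.92 and 6.08 in iFIPC organoids, of 1.39, -3.60 and -2.21 in crypt organoids and of 3.85, 5.38 and 2.15 in FI organoids. It lay at 6.68, 4.80 and 3.97 in iHep cells and at 1.79 and 2.43 in MEFs. Each group overlapped with the next in the order iFIPC, iHep, FI, MEF, iISC and crypt, so only groups farther apart were separated. Msln is known as a marker of mesothelium. Of 7 other mesothelium markers, Wt1 lay between -9.2 and -7.9 in all 12 organoid samples, whereas Upk1b and Muc16 were higher in iFIPC organoids, as given with the marker lists below.

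Ly6a, a surface antigen that is induced by interferon in mouse cells, had levels of -0.97, 1.06 and 2.62 in iISC organoids, of 3.67, 4.08 and 3.53 in iFIPC organoids, of -0.26, -3.92 and -3.43 in crypt organoids and of 2.78, 1.49 and -0.69 in FI organoids. It lay at 4.81, 4.55 and 5.44 in iHep cells and at 2.11 and 2.46 in MEFs. The 3 iFIPC samples were close together, whereas the other organoid groups were spread over more than 3 log2 units each. iHep cells lay above iFIPC organoids and these above MEFs without overlap, and the 4 groups from MEF downwards overlapped with their neighbours.

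Gja1, the gap junction gene connexin 43, had levels of -8.60, -7.88 and -8.04 in iISC organoids, of -3.23, -3.04 and -0.25 in iFIPC organoids, of -8.94, -8.52 and -8.62 in crypt organoids and of -8.51, -8.76 and -5.84 in FI organoids. It lay at -1.76, -1.50 and -3.06 in iHep cells and at 1.19 and 0.82 in MEFs. The probe was well above background in 3 of 3 iFIPC samples, in no iISC or crypt sample and in FI 3 alone among the FI samples. MEFs stood above iHep cells without overlap, iHep cells and iFIPC organoids overlapped, and iFIPC organoids stood above FI organoids.

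Basp1 had levels of -7.22, -8.07 and -6.06 in iISC organoids, of -3.55, -1.37 and -2.21 in iFIPC organoids, of -7.76, -7.74 and -8.08 in crypt organoids and of -7.76, -6.96 and -8.37 in FI organoids. It lay at -1.23, -0.69 and -2.84 in iHep cells and at 0.74 and 0.94 in MEFs. Among organoids outside the iFIPC group, iISC 3 was the single sample with Basp1 well above background. Basp1 and Gja1 shared the order MEF, iHep and iFIPC at the top, with every other organoid group at or near background.

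Anxa1, an annexin known for limiting inflammation, had levels of 0.98, 2.29 and 3.88 in iISC organoids, of 5.29, 5.53 and 5.62 in iFIPC organoids, of 0.88, -2.16 and -2.32 in crypt organoids and of 3.47, 3.19 and 2.70 in FI organoids. It lay at 6.39, 6.09 and 5.59 in iHep cells and at 6.29 and 6.74 in MEFs. MEF, iHep and iFIPC levels formed 1 overlapping block, FI and iISC another, and crypt organoids lay below both.

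Anxa8 had levels of -1.36, 0.92 and 2.49 in iISC organoids, of 4.90, 4.99 and 5.67 in iFIPC organoids, of -2.44, -5.95 and -5.40 in crypt organoids and of 0.87, 1.00 and -1.79 in FI organoids. It lay at 8.47, 7.31 and 8.31 in iHep cells and at 4.67 and 4.15 in MEFs. Anxa8 separated more groups than any other member: iHep, iFIPC and MEF levels each lay above the next without overlap, iISC and FI overlapped, and both lay above crypt organoids. The gap between iFIPC and MEF levels was only 0.23 and crosses the array sets, so it cannot be told apart from an array effect. Anxa8 was printed in 10 spots with SDs of 0.04 to 0.21 log2 (17 arrays). Gja1, the third member with 10 spots, had SDs of 0.05 to 0.15 (10 arrays).

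Group means were compared with limma over all genes, provided that 1 of the groups compared had the probe well above background throughout. A gene that passed only through 1 group could hardly be called lower there, so its direction was set by the filter. Calls required a log2 change of at least 1 and a p under 0.05 after Benjamini-Hochberg adjustment over all genes tested. The error of a change is its standard error in that fit, which pools the spread within all groups of the fit, also those not compared. A change is given as a lower bound where all arrays of the brighter group and none of the dimmer were well above background. Each dim array then stood at the lowest level of any probe well above background there, if that was higher. Comparisons that share a group are not independent of each other. How many of all genes had groups without overlap was not counted, so the counts of members without overlap have no background here.

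Crypt against FI organoids set the adult against the fetal native cultures. Of 5 members tested, 4 fell in crypt organoids and none rose, where 5.86% of 14187 genes tested were called lower. Msln changed by -5.27 ± 1.22 (adjusted p = 0.0188), Anxa8 by -4.62 ± 1.17 (0.0258), Anxa1 by -4.32 ± 0.87 (0.0101) and Clu by -3.34 ± 0.84 (0.0255), and samples of the 2 groups did not overlap for these 4. Ly6a changed by -3.73 ± 1.19 with overlapping samples and was not called (adjusted p = 0.0586). The median of the 5 members tested was -4.32, and that of all genes -0.02. Spp1, Gja1 and Basp1 were not tested, since no group had them well above background throughout. Spp1 had signal in FI 1 (-2.79) and FI 2 (-6.10) and in no crypt sample. FI 3 (-7.35) was at background too, so no lower bound is given.

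Crypt 1 was the crypt sample nearest to FI organoids, and it is also the only crypt sample on the slide of the FI arrays. Within that slide the difference of crypt 1 from the mean of the FI samples was -2.41 for Msln, -2.46 for Anxa8, -2.24 for Anxa1 and -1.46 for Ly6a, each smaller than over all samples, and all 8 differences were below 0, from -3.52 (Spp1) to -0.06 (Basp1). With slide as a term, 0 of the 5 were called. Without FI 1, FI 2, crypt 2 or crypt 3 in turn, 1 was called each time, and without crypt 1 or FI 3 Ly6a was called as well.

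iISC against iFIPC organoids set the adult type against the fetal type among induced cultures. All 8 members were lower in iISC organoids with no overlap of samples, though the share of all genes without overlap was not counted. By the test 7 of 8 fell, where 4.71% of 13766 genes were called lower. Clu changed by -6.13 ± 0.84 (adjusted p = 0.00237), Msln by -5.09 ± 1.23 (0.0250), Anxa8 by -4.50 ± 1.17 (0.0327) and Anxa1 by -3.10 ± 0.87 (0.0430). Basp1, with signal in 1 of 3 iISC samples, changed by -4.74 ± 0.62 (0.00177), a size that rests partly on background readings. Gja1 was at least 15.5-fold lower (adjusted p = 0.00316). Spp1 fell by 7.50 ± 2.00 (0.0364), a mean over 2 iISC samples at background and 1 with signal. Ly6a changed by -2.86 ± 1.19 and was not called (adjusted p = 0.136). The median over the 8 was -4.91, against 0.05 over all genes. Spp1, Gja1 and Basp1 passed the filter only through iFIPC organoids, so their direction was fixed in advance in these counts and in the median.

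Within a slide, against iFIPC 2, the iFIPC sample on the slide of the 3 iISC arrays, the 8 changes ran from -7.82 (Spp1) to -3.15 (Anxa1). Gja1 (-5.13) and Anxa8 (-4.30) were smaller there than over all samples, and the other 6 were larger. Calls depended on the samples and terms in the fit. With slide as a term 2 members stayed called, Clu and Basp1. Leaving out any iFIPC sample, iISC 1 or iISC 2 left 3 called in each case, whereas without iISC 3 every call held.

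**Figure D2:**
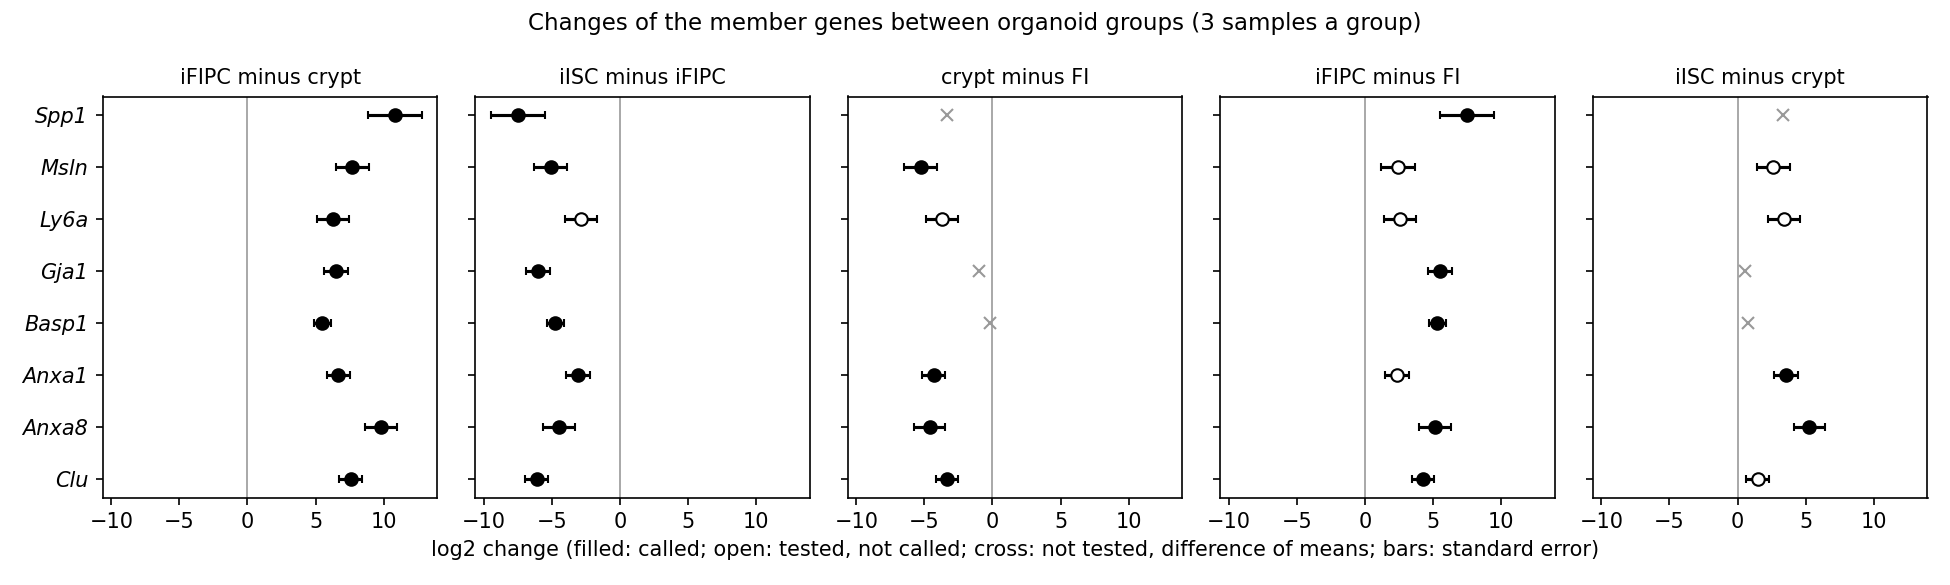
Log2 change of each member (rows) in 5 comparisons between organoid groups of 3 samples (panels), with bars of 1 standard error. Filled points were called, open points were tested and not called, and crosses are differences of means for genes not tested. All 8 points lie above 0 for iFIPC minus crypt and below 0 for iISC minus iFIPC.

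The 2 differences between adult and fetal type, induced and native, were set against each other in an interaction term: iISC minus iFIPC, less crypt minus FI. It was below 0 by the test for 2 of 8 members, where 1.98% of 14511 genes were called lower: Gja1 (-5.01 ± 1.24, adjusted p = 0.0414) and Basp1 (-4.57 ± 0.87, 0.0188). Both are genes near background in crypt and FI organoids, where Basp1 was well above background in no sample and Gja1 in FI 3 alone, so the native side of the term is a difference between background levels. Both passed the filter only through iFIPC organoids, so the term mostly restates that these had signal. With signal asked for in every group, neither was tested. For Anxa8 (0.12 ± 1.65), Msln (0.18 ± 1.74), Ly6a (0.87 ± 1.68) and Anxa1 (1.22 ± 1.24) the term was within 1 standard error of 0. Spp1 (-4.15 ± 2.84, adjusted p = 0.369) and Clu (-2.79 ± 1.19, 0.163) were not called. Without crypt 2 no member was called, nor with slide as a term. The call of Gja1 was also lost without FI 1, FI 2, crypt 3, iFIPC 2, iFIPC 3, iISC 1, iISC 2 or iISC 3. Without iISC 3, Spp1 was called in its place, at -6.96.

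iFIPC against FI organoids compared the induced fetal type with its native counterpart. All 8 members were higher in iFIPC organoids with no overlap of samples, again without a share over all genes. By the test 5 of 8 rose, where 5.63% of 14376 genes were called higher. Spp1 rose by 7.49 ± 2.01 (adjusted p = 0.0243), Gja1 by 5.53 ± 0.88 (0.00335), Anxa8 by 5.16 ± 1.17 (0.0132) and Clu by 4.26 ± 0.84 (0.00788), and Basp1 at least 23.9-fold (adjusted p = 0.000866). Anxa1 (2.36 ± 0.87, adjusted p = 0.0716), Msln (2.43 ± 1.23, 0.164) and Ly6a (2.57 ± 1.19, 0.134) were not called. The median over the 8 was 4.71, against -0.08 over all genes. Spp1, Gja1 and Basp1 passed the filter only through iFIPC organoids, so they could only come out higher. Spp1 had signal in 2 of 3 FI samples and Gja1 in 1, so their changes rest partly on background readings.

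No slide held both iFIPC and FI arrays, so slide and group can be separated here only through the other groups, and with slide as a term 0 of 8 were called, although the 5 changes remained at 4.97 to 8.49. Spp1 lost its call without FI 2, FI 3 or any of the iFIPC samples. Its FI samples differed by more than 4 log2 units (SD 2.36), and its SD in iISC organoids, which the error also pools, was 4.87. The other 4 calls held in each fit that left out 1 sample.

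iFIPC against crypt organoids gave the widest separation. All 8 members rose, where 9.38% of 14054 genes tested were called higher. No samples overlapped, for which no share over all genes was counted. Spp1 was at least 418-fold higher (adjusted p = 0.00387), Gja1 at least 21.9-fold (0.000726) and Basp1 at least 19.0-fold (0.000303). Anxa8 rose by 9.78 ± 1.17 (adjusted p = 0.000445), Msln by 7.70 ± 1.23 (0.00177), Clu by 7.60 ± 0.84 (0.000275), Anxa1 by 6.68 ± 0.87 (0.000648) and Ly6a by 6.29 ± 1.19 (0.00426). Within the slide that holds crypt 2, crypt 3, iFIPC 1 and iFIPC 3, the differences ran from 5.03 (Basp1) to 10.96 (Anxa8). The median over the 8 was 7.14, against -0.08 over all genes. Here too Spp1, Gja1 and Basp1 passed the filter only through iFIPC organoids, so they could only come out higher.

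iISC against crypt organoids compared the 2 budding cultures. Of 5 members tested, 2 rose in iISC organoids, where 2.07% of 13603 genes were called higher: Anxa8 by 5.28 ± 1.16 (adjusted p = 0.0335) and Anxa1 by 3.58 ± 0.87 (0.0448). Their samples did not overlap, though for Anxa1 iISC 1 (0.98) and crypt 1 (0.88) nearly met. Ly6a (3.44 ± 1.18, adjusted p = 0.128), Msln (2.61 ± 1.22, 0.248) and Clu (1.47 ± 0.84, 0.344) had overlapping samples and were not called. Spp1 had signal in iISC 3 alone, so no lower bound is given for the group, and Gja1 was below background in both groups. Neither annexin was called without crypt 2, crypt 3, iISC 2 or iISC 3, nor with slide as a term. Without crypt 1, 4 members were called, with Ly6a at 4.57 and Msln at 4.04 beside the annexins. No slide holds both groups.

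iISC against FI organoids gave 0 calls among 5 members tested, where 5.46% of 14126 genes were called in either direction. In limma no member of the 5 had an unadjusted p under 0.05 either. Msln (-2.65 ± 1.22, adjusted p = 0.181) and Clu (-1.87 ± 0.84, 0.173) were on the lower side and Anxa1 (-0.74 ± 0.87), Ly6a (-0.29 ± 1.18) and Anxa8 (0.66 ± 1.17) within 1 standard error of 0. Samples of the 2 groups overlapped for all 8 members.

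Against MEFs, the organoid groups differed in how many members fell. All 8 fell in crypt organoids (26.1% of 15020 genes were called lower), with Spp1 at least 27364-fold lower, Gja1 at least 198-fold, Basp1 at least 177-fold and Anxa1 at -7.71 ± 0.87. In iISC organoids 5 fell (background 25.5%) and in FI organoids 5 fell (23.8%), in each case Spp1, Gja1, Anxa1, Anxa8 and Basp1. For crypt, iISC and FI organoids, Spp1, Gja1 and Basp1 passed the filter only through MEFs, so they could only fall. In iFIPC organoids Clu (4.91 ± 0.84, adjusted p = 0.000216) and Msln (4.11 ± 1.30, 0.0140) rose (20.2% of genes were called higher). Spp1 (-6.03 ± 1.97, adjusted p = 0.0164), Basp1 (-3.22 ± 0.73, 0.00175) and Gja1 (-3.18 ± 0.91, 0.00812) fell (23.3% were called lower). Anxa1, Anxa8 and Ly6a were within 1.47 log2 of MEFs there. Without MEF 1, which leaves 1 MEF sample, 2 of these 5 were called. Array set goes with cell type in all of these comparisons.

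iHep cells against MEFs were compared on arrays of 1 set. Clu rose by 5.71 ± 0.84 (adjusted p = 0.000129) and Anxa8 by 3.62 ± 1.16 (0.0225), where 11.9% of 14400 genes were called higher. Gja1 fell by 3.11 ± 0.91 (0.0139) and Basp1 by 2.43 ± 0.73 (0.0155), where 15.9% were called lower. Spp1 changed by -3.38 ± 1.96 (adjusted p = 0.181), Msln by 3.03 ± 1.30 (0.0740) and Ly6a by 2.65 ± 1.17 (0.0826) with no overlap of samples and without a call. The error of Spp1 pools all 6 groups, with SDs of 4.87 in iISC organoids, 0.55 in iHep cells and 0.23 in MEFs. Anxa1 changed by -0.49 ± 0.87. Thus 4 members were called, and 1 without MEF 1, 1 without MEF 2 and 3, and 2 without iHep 3. With slide as a term, in a fit over the MEF and iHep samples alone, 4 were called as well. There Gja1 (adjusted p = 0.0734) and Basp1 (0.211) lost their calls, while Spp1 (-3.54, adjusted p = 0.0334) and Ly6a (2.82, 0.0388) gained them. Because that fit also left out the organoid samples, these shifts cannot be laid to slide alone. iFIPC organoids against iHep cells, across the array sets, gave 1 call: Anxa8 at -2.85 ± 1.04 (adjusted p = 0.0314), where 16.6% of genes were called lower, and that call was lost without iFIPC 1, iFIPC 2, iHep 1 or iHep 3. Gja1 (-0.07 ± 0.81) and Anxa1 (-0.54 ± 0.78) were within 1 standard error of 0.

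Within the organoid groups, samples differed for several members at once. In iISC 3 all 8 members lay above the group mean, by 0.13 (Gja1) to 5.61 (Spp1), and 7 of 8 were the highest of the group. In iISC 1 all 8 lay below the mean. Crypt 1 was the highest crypt sample for Clu, Msln, Ly6a, Anxa1 and Anxa8, by 1.59 to 2.86 above the mean, while Spp1, Gja1 and Basp1 were at background in all crypt samples. FI 3 lay below the group mean for 7 of 8, and Gja1 was its exception. iFIPC samples deviated least for Anxa1, and iFIPC 3 was highest for Gja1 and lowest for Clu.

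**Figure D3:**
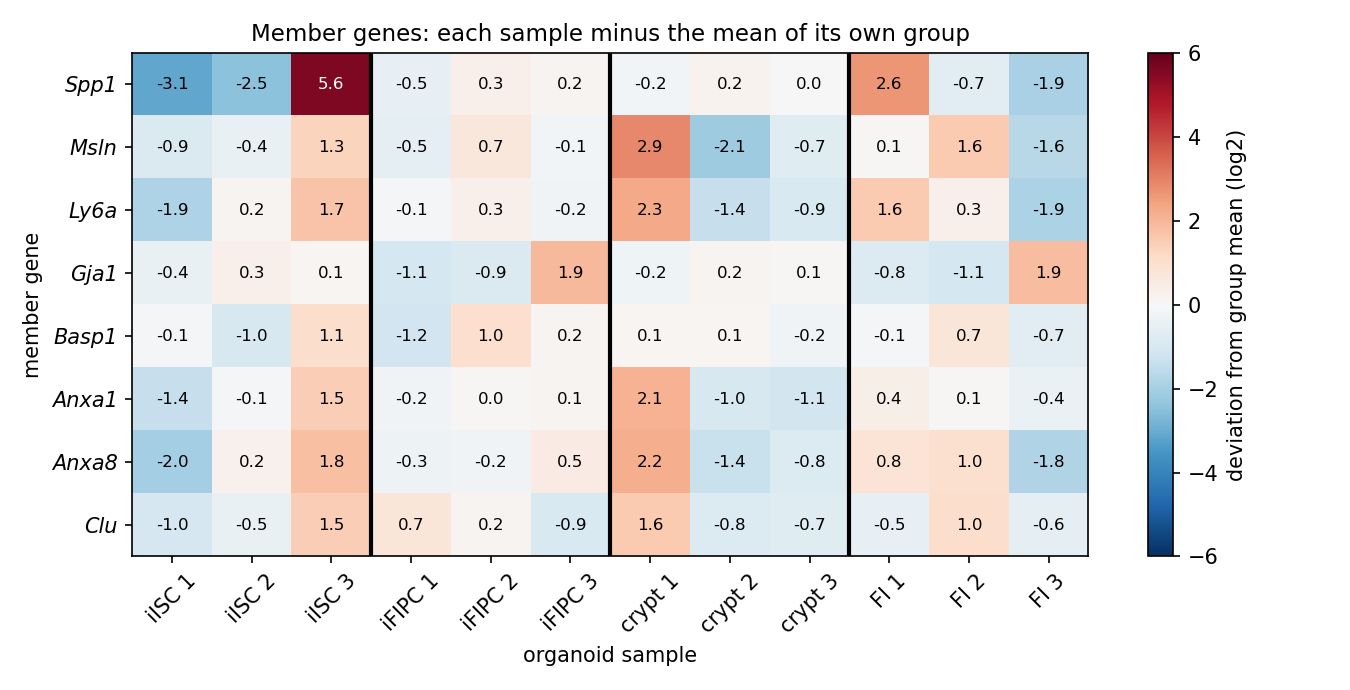
Level of each member gene (rows) in each organoid sample (columns, grouped by vertical lines) minus the mean of its own group, in log2 units, with the value printed in each cell (red above and blue below the mean). iISC 3 is above its group mean in all 8 rows, and crypt 1 is above it by 1.59 to 2.86 for Msln, Ly6a, Anxa1, Anxa8 and Clu.

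Over the 12 organoid samples, the 28 pairs of members had Pearson correlations of 0.61 to 0.97 (median 0.87). These points share the group structure and the arrays. After group means were taken out, the correlations ran from -0.43 to 0.95 (median 0.54). The 5 genes above background in every organoid sample stayed together within groups, with 0.95 for Anxa8 with Ly6a, 0.91 for Anxa8 with Anxa1 and 0.73 for Clu with Ly6a. Gja1 did not: its 7 correlations within groups were all below 0, down to -0.43 with Clu, and most of its levels outside iFIPC organoids were background.

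The genes most like each member were taken from 13895 named genes by Pearson correlation of levels over the same 12 samples, as a description. Ly6a was followed by Ly6c2 at 0.9995, the closest match of all, and by Ly6c1 at 0.9742, both genes of its own surface antigen family. Ly6c2 had levels of 0.6, 2.6 and 4.1 in iISC organoids 1 to 3, and 5.2, 5.6 and 5.0 in iFIPC organoids 1 to 3. The Ly6c2 probe shares a run of no more than 6 bases with the Ly6a probe, with 24 of 56 aligned bases identical, and the Ly6c1 probe a run of 10, with 33 of 40 aligned bases identical. Whether these probes detect one transcript was not tested. Anxa8 was followed by Ly6d (0.9825) and Anxa1 by Tmc7 (0.983), and each of these 2 genes was among the 3 nearest of the other annexin too. Clu was nearest to Syt16 (0.9916), the ecto-enzyme gene Nt5e (0.9801) and the caveolin gene Cav2 (0.9696). Spp1 was nearest to the growth factor gene Tgfb3 (0.9675), Fa2h (0.9644) and Crip2 (0.9618). Gja1 was nearest to the transcription factor gene Sox7 (0.9704), Fhod3 (0.9702) and Bnip2 (0.9591). Basp1 was nearest to Ecm1 (0.98), the membrane linker gene Msn, moesin (0.9778), and Serpinb6b (0.9777), and Msln to the latent TGF-beta binding protein gene Ltbp3 (0.9803), Asap1 (0.973) and Tmem43 (0.9649). The remaining near genes were Snx33 for Ly6a (0.9791), Shisa5 for Anxa1 (0.9713) and Rasgef1b for Anxa8 (0.969).

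Other genes known from fetal spheroids and regenerating epithelium were described in a list of 19, all on the array. In iFIPC against crypt organoids 15 of 19 rose and 0 fell, with a median of 2.41. The matrix growth factor gene Ccn2, a YAP target, rose by 6.94 ± 0.53 (4.72e-05) and the alarmin gene Il33 by 6.40 ± 1.32 (0.00653). In iISC against iFIPC organoids 6 of 19 fell and 0 rose, with Il33 at -6.02 ± 1.32 and Ccn2 at -3.98 ± 0.52. In crypt against FI organoids 5 of 19 fell and 0 rose (median -1.40), among them Bex1 at -5.36 ± 1.02 and Ccn2 at -3.86 ± 0.52. In iFIPC against FI organoids 8 rose and 1 fell: Bex1 fell by 3.53 ± 1.03 (adjusted p = 0.0329) where the 8 members were all on the higher side. In iISC against crypt organoids 3 of 18 rose: Ccn2 by 2.96 ± 0.52, S100a6 by 2.48 ± 0.58 and Anxa5 by 1.75 ± 0.37.

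Adult crypt stem cell genes were described in a list of 15. Of 15 tested, 0 were called in crypt against FI organoids and 1 in iISC against iFIPC organoids, the surface antigen gene Prom1, which fell by 1.18 ± 0.24. In iFIPC against FI organoids Tnfrsf19 fell by 3.62 ± 0.98 and the R-spondin receptor gene Lgr5 by 1.97 ± 0.48, and Prom1 rose by 1.31 ± 0.24. In iISC against FI organoids, where 0 members were called, Tnfrsf19 changed by -5.06 ± 0.98 (adjusted p = 0.0152) and Lgr5 by -1.70 ± 0.47 (0.0492).

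Relatives and partners of the members moved gene by gene. Of 10 other annexins, Anxa10 fell by 6.63 ± 0.81 in iISC against iFIPC organoids (adjusted p = 0.00129) and rose by 4.73 ± 0.81 in iFIPC against FI organoids (0.00453), whereas Anxa13, an intestinal annexin, rose by 3.09 ± 0.52 and fell by 1.99 ± 0.52 in the same comparisons. In crypt against FI organoids Anxa5 fell by 1.92 ± 0.37 and Anxa6 by 1.88 ± 0.38. Among connexins and pannexins beside Gja1, 3 of 10 tested rose in iFIPC against FI organoids, among them Gjb6 (at least 37.8-fold) and Gjb5 (3.11 ± 0.89), both known from skin. Of the Ly6 family, 8 of 14 rose in iFIPC against crypt organoids, with Ly6d at 9.45 ± 1.20 and Lypd3 at 8.59 ± 1.30, both known from stratified epithelia. The osteopontin receptor genes Itgav (2.01 ± 0.19), Itga5 (1.64 ± 0.35), Cd44 (1.24 ± 0.34) and Itgb5 (1.04 ± 0.20) rose in the same comparison, 4 of 8 tested. The mesothelin partner Muc16 rose by 2.44 ± 0.62 in iFIPC against FI organoids. Of 2 clusterin receptors tested, 0 were called in any comparison between organoid groups. Interferon response genes were described because interferon induces Ly6a. Of 16 tested, 6 rose in iFIPC against crypt organoids, with Usp18 at 3.81 ± 0.84. In crypt against FI organoids 4 of 15 fell, with Rsad2 at least 4.80-fold lower. In iFIPC against FI organoids 1 of 16 rose (Mx1) and 1 fell, Ifit2 at -1.29 ± 0.34 (adjusted p = 0.0219).

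Markers of other cell types also differed between the organoid groups, and their part in the results above was not tested. The 17 fibroblast markers had summed levels of 0.22 to 0.35 in iISC, 1.41 to 3.39 in iFIPC, 0.03 to 0.23 in crypt and -0.34 to 0.84 in FI organoids, and 4 to 6, 9 to 15, 4 to 5 and 4 to 9 of 17 were well above background in these groups. iHep cells stood at 6.78 to 7.89 and MEFs at 10.31 to 10.36. Fibroblast markers were thus higher in iFIPC than in other organoids and far below MEFs. Col1a1 lay at -1.2, 0.5 and -3.0 in iFIPC organoids 1, 2 and 3 and at -1.1, -7.3 and -5.9 in FI organoids 1, 2 and 3, against 7.1 and 7.4 in MEFs. Dcn (at least 24.3-fold) and Twist1 (at least 19.9-fold) rose in iFIPC against FI organoids. A fit without iFIPC 2 and FI 1, the samples with the most Col1a1 in their groups, was chosen after seeing the data and has fewer samples. In iFIPC against FI organoids it gave 8.64 (Spp1), 5.68 (Anxa8) and 3.94 (Clu) without a call. All samples gave 7.49, 5.16 and 4.26, each called. Gja1 and Basp1, 2 members, remained called. iFIPC 1, which stayed in, also had 15 of 17 fibroblast markers well above background, and the part of fibroblasts was not tested by this fit. In the same fit 0 members were called in crypt against FI organoids and 3 in iISC against iFIPC organoids.

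**Figure D4:**
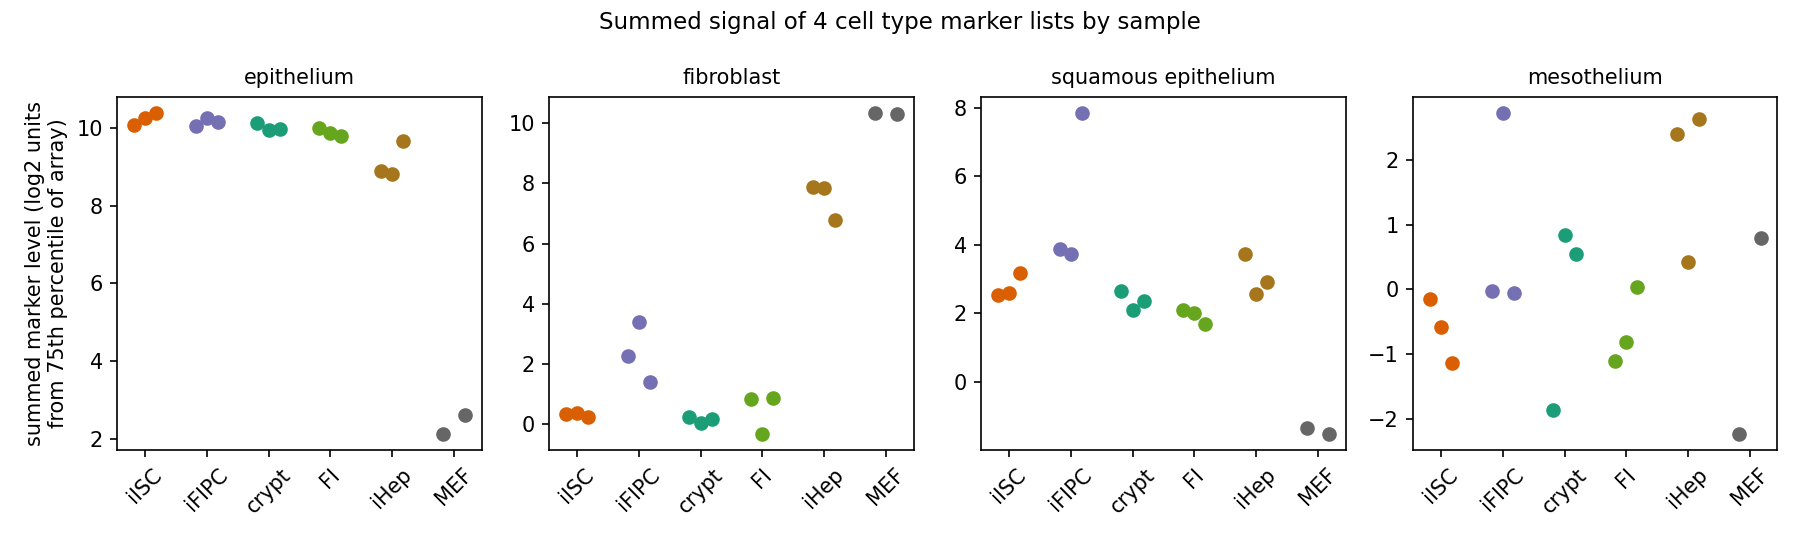
Summed signal of 4 marker lists (panels: epithelium, fibroblast, squamous epithelium, mesothelium) in each sample of the 6 groups (x axis), in log2 units from the 75th percentile of the array (y axis). Fibroblast markers lie at 1.41 to 3.39 in iFIPC organoids and at -0.34 to 0.84 in FI organoids, and squamous markers reach 7.85 in iFIPC 3.

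The 7 squamous epithelium markers had summed levels of 2.53 to 3.19 in iISC, 3.73 to 7.85 in iFIPC, 2.10 to 2.64 in crypt and 1.68 to 2.09 in FI organoids. All 7 were well above background in every iFIPC sample, and 5 of 7 rose in iFIPC against FI organoids, with Trp63 at least 58.9-fold higher and Krt5 at 7.03 ± 1.50. iFIPC 3 held the highest levels, with Krt5 at 7.1, against 2.7 in iFIPC 1 and -0.4 in iFIPC 2. It was also the highest iFIPC sample for Gja1 (-0.25), Anxa8 (5.67) and Anxa1 (5.62), the lowest for Clu (5.48) and Ly6a (3.53), and the middle one for Spp1, Basp1 and Msln. Mesothelium markers had summed levels of -1.14 to -0.15 in iISC, -0.06 to 2.74 in iFIPC, -1.87 to 0.84 in crypt and -1.10 to 0.04 in FI organoids. Of these 7 markers, Upk1b (4.06 ± 0.98) and Muc16 (2.44 ± 0.62) rose in iFIPC against FI organoids, 2 of 4 tested, and the same genes rose in iFIPC against crypt organoids by 3.57 ± 0.98 and 3.02 ± 0.62, 2 of 3 tested. Upk1b was highest in iFIPC 2 (2.69), which also had the highest Msln. Immune markers stood at -2.76 to -2.57, -1.68 to 0.06, -2.61 to -1.63 and -2.51 to -2.27 in the same groups, and endothelial markers at -3.79 to -2.42, -2.86 to -1.29, -2.77 to -2.38 and -1.89 to -1.48.

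Promoter sequence was available for 5 of the 8 members (6 start sites, the 250 bases before each start, RefSeq, GRCm38.p6). The motifs searched were 3: the AP-1 site TGANTCA on both strands, the TEAD site CATTCC on both strands and the TATA box TATAAA on the strand of the gene. The promoters below are those of the 3 members that hold a match, which is in capitals. Calls do not set these members apart: all 8 members were called in iFIPC against crypt organoids and 7 of 8 in iISC against iFIPC organoids.
Spp1 promoter: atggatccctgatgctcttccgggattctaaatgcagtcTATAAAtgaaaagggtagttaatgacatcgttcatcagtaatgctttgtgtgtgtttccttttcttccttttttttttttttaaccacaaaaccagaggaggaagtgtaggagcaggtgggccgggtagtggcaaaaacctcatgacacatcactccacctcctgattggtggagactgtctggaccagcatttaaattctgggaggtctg
Gja1 promoter: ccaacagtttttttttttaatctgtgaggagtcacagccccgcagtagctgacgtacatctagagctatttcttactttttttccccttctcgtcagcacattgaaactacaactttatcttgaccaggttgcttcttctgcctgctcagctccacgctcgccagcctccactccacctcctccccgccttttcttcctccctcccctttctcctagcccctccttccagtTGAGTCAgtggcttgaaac
Anxa1 promoter: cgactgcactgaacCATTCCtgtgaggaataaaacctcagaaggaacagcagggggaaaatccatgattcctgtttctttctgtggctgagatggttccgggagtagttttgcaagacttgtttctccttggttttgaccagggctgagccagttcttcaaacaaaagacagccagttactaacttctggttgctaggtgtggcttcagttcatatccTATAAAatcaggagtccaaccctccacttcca
These windows lie at chr5:104434861-104435110 (plus strand), chr10:56377050-56377299 (plus strand) and chr19:20390672-20390921 (minus strand). The AP-1 match of Gja1 began 19 bases before the start, the TATA match of Anxa1 32 bases and its TEAD match 236 bases before, and the TATA match of Spp1 211 bases before. The second Spp1 start site and the promoters of Anxa8 and Basp1 held none of the 3 motifs. G and C made up 58.0% of the Anxa8 window and 78.8% of the Basp1 window. Of 32851 promoter windows of the same length, 6.75% held the AP-1 letters, 12.64% the TEAD letters and 7.59% the TATA letters, so a match is a description and not a site.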

How the data were processed

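RNA from the 18 samples was extracted with TRIzol and a column kit, labelled with Cy3 and hybridised to Agilent mouse arrays, per the labels' protocols. Processed signals in the deposited array files are linear intensity values with background already subtracted and no scaling between arrays, per the file headers. Raw mean and background signals are intensity values as well, and the deposited flags (well above background, saturated, outlier) are 0 or 1. Feature Extraction 9.5.1.1 is named for all arrays per the submitters' processing notes, while organoid arrays carry 10.7.1.1, per the file headers. The authors' series matrix holds linear intensity values that correlated at 1 with a quantile normalization computed here (column medians 59.1 to 59.2).

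Spots flagged as outliers (62 to 107 per array) were left out, spots of a probe averaged, log2 taken and each array's 75th percentile subtracted. Probes lacking a value on some array (65) were dropped. No spot of a member was saturated. Members carry the arrays' gene names, and other genes with several probes are represented by the brightest. Tests used limma 3.58.1 in R 4.3.3 with 1 mean per group: comparisons among organoids over the 12 organoid samples, all others over 17 samples. Sequences were handled in Python 3.11.15. The fit for crypt minus FI organoids was run on simulated data with known changes in brighter genes. These data were drawn without slide effects, so the run does not bear on slide or on genes near background. The number of arrays limits the precision.

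The members, gene lists, tests and alternatives were chosen with earlier results of these data known. Besides members, the text names the 3 genes nearest to each, up to 4 called genes per list with a large change, and genes that went against their list. Alternatives were quantile normalization, normexp background correction, the authors' matrix, filters on dim probes, single probes, 18 separate arrays, a fit over all samples, slide or replicate number as a term, and leaving out samples.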

Additional observations from a re-analysis of the deposited data

Results flagged for a closer look

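For 2 members the difference between adult and fetal type in induced organoids was called as unlike that in native organoids, by a test of the difference between the differences (iISC minus iFIPC, less crypt minus FI, limma). For Gja1 it was -5.01 ± 1.24 log2 (adjusted p = 0.0414), and for Basp1 -4.57 ± 0.87 (adjusted p = 0.0188). In both cases the gene was well above background in 3 of 3 iFIPC samples and passed the filter through iFIPC organoids alone. Basp1 was above background in 1 of 3 iISC samples and Gja1 in none, and among the native cultures FI 3 alone had Gja1. The term thus mostly restates that iFIPC organoids had signal, and does not compare measured differences on both sides. The calls did not hold throughout. With slide as a term the adjusted p was 0.439 for Gja1 and 0.118 for Basp1, and without iFIPC 2 and FI 1 it was 0.115 and 0.0772. Leaving out 1 sample at a time, Gja1 kept its call without crypt 1, FI 3 or iFIPC 1 and lost it in the other fits, Basp1 lost its call without crypt 2, and the members called ranged from 0 to 2.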

How the results depend on the processing

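Of 1445 recomputed member changes, 1259 kept direction and side of the threshold, 128 lost a call, 21 gained one and 37 turned in direction, none of them called before or after. With slide as a term, called members came to 0 for crypt minus FI, 0 for iFIPC minus FI, 0 for iISC minus crypt, 2 for iISC minus iFIPC and 0 for the interaction, and called genes to 314, 113, 36, 293 and 57, against 1280, 1530, 465, 1092 and 756. Called genes came to 8 against 771 for iISC minus FI and 1646 against 4003 for iHep minus MEF, the latter over MEF and iHep samples alone. For iHep minus MEF 4 members were called, but Spp1 and Ly6a in place of Gja1 and Basp1. Asking for signal in every group compared gave 2 members for iFIPC minus FI, 5 for iFIPC minus crypt and 4 for iISC minus iFIPC. It gave 0 for the interaction, 5 for crypt minus MEF and 2 each for iISC and FI minus MEF. Spp1, Gja1 and Basp1 were then not tested in these comparisons. Called genes came to 709 for iISC minus iFIPC and 293 for iISC minus crypt. They came to 4999 of 7559 for crypt minus MEF and 4639 of 7173 for iISC minus MEF. Fewer genes are tested under that filter. Without a filter, 0 members were called for iISC minus crypt and 1 for the interaction. With normexp 1 was called for the interaction and 2 for iFIPC minus iHep. Without iFIPC 2 and FI 1, chosen after seeing the data, members came to 0 for crypt minus FI, 2 for iFIPC minus FI, 3 for iISC minus iFIPC, 0 for the interaction and 0 for iFIPC minus iHep, and genes of the interaction to 197. Without crypt 1 and iISC 3, also chosen afterwards, 1 was called for iISC minus FI, and genes of the interaction came to 1369. Fewer samples are part of each such fit. The cause of the other changes was not tested.

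Leaving out 1 sample at a time, members called ranged from 1 to 5 for crypt minus FI, 3 to 7 for iISC minus iFIPC, 0 to 4 for iISC minus crypt, 0 to 2 for the interaction, 1 to 4 for iHep minus MEF, 2 to 5 for iFIPC minus MEF and 0 to 1 for iFIPC minus iHep. Genes called moved most without FI 2 (276 for iISC minus FI), crypt 2 (160 for iISC minus crypt), crypt 3 (306 for the interaction) and crypt 1 (1583 for the interaction). Changes near 0 turned in direction: the range was -1.0308 to 0.459 for Gja1 in iFIPC minus iHep, -0.2486 to 1.6809 for Anxa8 and -1.2314 to 0.6434 for Ly6a in iISC minus FI, and -0.7858 to 1.1969 for Anxa8 and -0.8821 to 1.6112 for Msln in the interaction. Gja1 in iFIPC minus iHep also turned with quantile normalization (0.0859), the authors' matrix (0.0729) and without iFIPC 2 and FI 1 (0.3655). In iISC minus FI, slide as a term gave 2.3097 for Anxa1, 0.2456 for Clu, 2.6421 for Ly6a and 0.6098 for Msln, leaving out iFIPC 2 and FI 1 gave 0.502 for Ly6a, and leaving out crypt 1 and iISC 3 gave -0.2463 for Anxa8. In the interaction, slide as a term gave -0.9072 for Anxa1, -1.8398 for Anxa8, -1.7184 for Ly6a and -3.3657 for Msln, normexp gave -1.2221 for Anxa8 and -0.1834 for Msln, and Anxa8 came to -0.1254 with the authors' matrix, -0.0599 with quantile normalization and -0.4016 without iFIPC 2 and FI 1.

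The replicate numbers share only a number: deviations of 18 same-numbered pairs correlated at -0.40 to 0.34, and 1 of 12 arrays correlated best with its own number. With the replicate number as a block, called members came to 2 for crypt minus FI, 3 for iISC minus iFIPC and 0 for iISC minus crypt, and were 5, 8, 0 and 2 as before for iFIPC minus FI, iFIPC minus crypt, iISC minus FI and the interaction.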
